A study of Mus musculus with 69 samples.

Results

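The genes described are those of the cytokines IL-2 and IL-21 (Il2, Il21), the 3 chains of the IL-2 receptor (Il2ra, Il2rb, Il2rg) and the IL-21 receptor chain Il21r. They were taken by symbol from the 23366 genes of each library's table, and all 6 were found. They were followed in 63 of 69 libraries of mouse naive CD4 T cells that had been turned into type 1 regulatory (Tr1) cells, with 28 control and 35 knockout libraries covering 15 transcription factors in 16 knockout comparisons. Tr1 cells are CD4 T cells known for making IL-10 without needing the factor Foxp3.

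The cells were activated through CD3 (antibody at 1 ug/ml) in the presence of 25 ng/ml IL-27 for 72 h, and an antibody to CD8 is named in the labels as well. For each library, 2000 cells were lysed and polyadenylated RNA was converted with an adapted SMART-Seq2 protocol. The deposited values are expected counts per gene, reported here as CPM (the count with the library total scaled to 1000000), and TPM, used here for levels between genes because these are also scaled by length. Whether replicates are separate animals or cultures is not in the labels, and the p-values therefore rest on a spread between libraries that may be technical.

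Floxed alleles removed by CD4 Cre(+/-) were used for Prdm1 (3 libraries), Maf (3), Prdm1 with Maf (2 used), Fosl2 (1 used), Hif1a (2), Nfil3 (2) and Stat3 (1). Atf3 f/f was combined with Actin Cre(+/-) (2 libraries), which is not limited to T cells, and Irf8 f/f with dLck Cre(+/-) (2). The Ahr (2), Batf (2), Ets1 (2), Irf1 (3), Irf4 (2), Irf9 (4) and Tbx21 (2) libraries are labelled as knockouts with no further allele. Controls were Cre-negative for Prdm1 and Maf (3), floxed without Cre for Atf3 (2), Fosl2 (2), Hif1a (2) and Nfil3 (3), and wild type for Ahr (2), Ets1 (2), Irf4 (3), Irf9 (3) and Tbx21 (2). Batf, Irf1, Irf8 and Stat3 drew on 4 wild-type controls in 3 batches: batches A and B are named in the titles, batch C is what remained. Irf9 libraries were BALB/c and the others C57BL/6, so Irf9 values differ in strain from the rest. CD4 Cre acts from thymic development on, so cells lacking those factors had lacked them before culture. A double knockout library with 9059 counts, 4 Cebpb-experiment libraries with 30602 to 46237 counts, and a Fosl2 knockout library in which the ribosomal RNA gene Rn45s took 84.8% of counts were left out.

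IL-2 is made soon after a T cell meets antigen and drives T cell growth and survival. It binds a receptor of the alpha chain CD25 (Il2ra), which raises affinity, the beta chain CD122 (Il2rb) and the common gamma chain (Il2rg), and it signals through JAK1 and JAK3 to STAT5. IL-21 binds its own chain (Il21r) paired with the same gamma chain and signals mainly through STAT3; it is made by follicular helper, Th17 and Tr1 cells. The gamma chain is shared with the receptors for IL-4, IL-7, IL-9 and IL-15, and Il2rb with that for IL-15. IL-27 is known to induce IL-21 in Tr1 cells together with the factor Maf.

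Il2 and Il21 are neighbours on mouse chromosome 3: in the RefSeq gene order only the non-coding RNA genes Gm36000 and Gm12532 stand between them. The bases before the start of each cytokine gene are shown because both genes moved most among the 6, sometimes in opposite directions. The sequences are RefSeq, build GRCm38.p6, minus strand, 250 bases ending just before the start, Il2 at chr3:37125955-37126204 and Il21 at chr3:37232637-37232886. Capitals mark the searched motifs, which did not overlap: the NFAT core GGAAA on either strand (TTTCC on the opposite one) and the TATA box TATAAA.

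Il2: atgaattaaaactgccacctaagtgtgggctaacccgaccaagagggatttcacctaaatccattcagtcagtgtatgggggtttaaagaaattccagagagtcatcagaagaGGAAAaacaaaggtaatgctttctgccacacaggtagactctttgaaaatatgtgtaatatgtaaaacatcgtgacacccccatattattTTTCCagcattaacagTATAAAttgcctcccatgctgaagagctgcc
Il21: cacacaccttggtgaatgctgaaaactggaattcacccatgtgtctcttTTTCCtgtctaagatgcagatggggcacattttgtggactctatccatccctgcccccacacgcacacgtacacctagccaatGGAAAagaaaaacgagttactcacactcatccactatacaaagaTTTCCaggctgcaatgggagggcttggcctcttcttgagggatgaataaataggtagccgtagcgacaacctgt

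The Il2 window held the NFAT core from -137 to -133 on the gene's strand and from -47 to -43 on the other, and a TATA box from -31 to -26. The Il21 window held the core at -201 to -197, -118 to -114 and -74 to -70, and no TATAAA. NFAT is the calcineurin-activated factor that antigen receptor signals bring to the Il2 promoter. The core letters are common: 55.6% of 27025 promoter windows of this length held them, against 13% for TATAAA. Neither window held the AP-1 letters TGANTCA (6.87% of all windows) or the STAT letters TTCNNNGAA (7.18%), which says only that these letters are not in these bases. The tables matched 5 of the 6 genes, with no entry for Il2rb. The windows of Il2ra and Il2rg held 1 core each and that of Il21r held none of the 4 motifs.

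Library totals ran from 743445 to 15221850 counts, with a median of 2425249, and 10440 to 13890 genes were detected. T cell markers (6 genes such as Cd3e and Cd4) summed to 1178 to 4044 CPM in every library, and 5 myeloid markers to at most 1.80 CPM. Rn45s took over 30% of counts in 4 libraries, 3 of them in the Fosl2 experiment and 1 an Irf8 knockout (43.7%), which lowers every CPM there; the fitted changes are scaled by TMM. The targeted gene fell in the Prdm1, Maf, double, Batf, Irf4, Stat3 and Tbx21 comparisons. It rose 3.83-fold in libraries labelled Atf3 knockout, at 85.7 and 75.1 CPM against 14.5 and 27.1. Target changes did not pass the test for Ahr, Ets1, Fosl2, Hif1a, Irf1, Irf8, Irf9 and Nfil3, where one knockout library kept 211 CPM of Nfil3 and the other had 3.08 CPM.

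**Figure D1:**
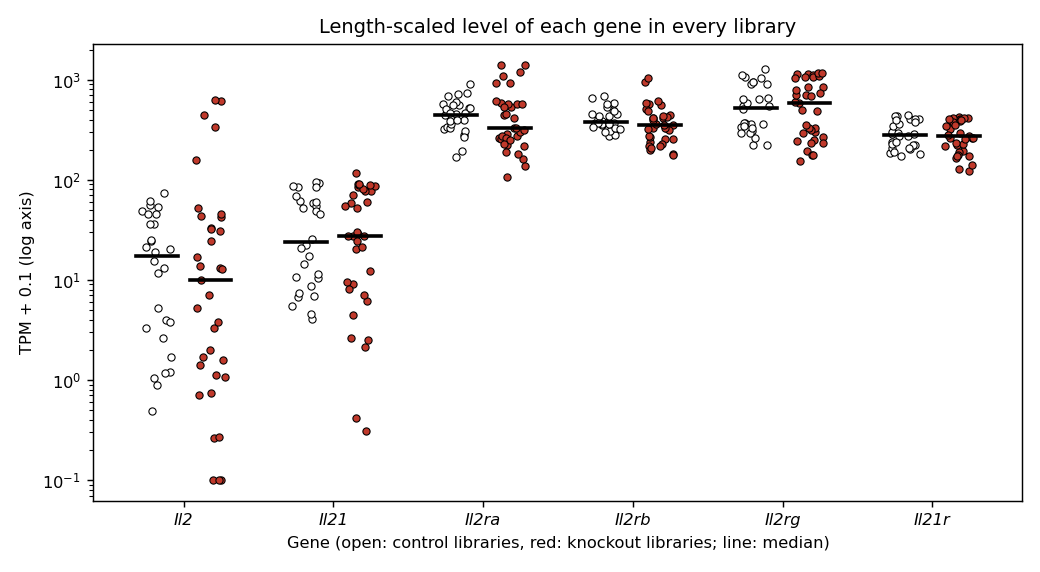
TPM plus 0.1 of each gene (y axis, log scale) in 28 control (open) and 35 knockout (red) libraries, with a line at the median. The receptor chains sit above the cytokines, while a few knockout libraries bring Il2 up into their range.

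On the length-scaled TPM scale, the receptor chains were the more abundant transcripts. Control libraries had medians of 523 TPM for Il2rg, 447 for Il2ra, 375 for Il2rb, 281 for Il21r, 23.7 for Il21 and 17.1 for Il2. The plot of TPM by gene shows the same separation in knockout libraries. Il21 lay below all 4 receptor chains in 63 of 63 libraries. Il2rg was the highest of the 6 in 30 libraries, Il2ra in 21 and Il2rb in 9, so the order of these 3 was not fixed. Il2 was the highest in the remaining 3, both Batf knockout libraries and the Stat3 knockout library.

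The cytokines also varied between experiments without any knockout. Il2 ran from 0.144 to 36.3 CPM over the control libraries and Il21 from 5.43 to 172 CPM. The lowest control means of Il2 were 0.269 CPM for Fosl2, 1.01 for Prdm1 and Maf, 1.21 for Atf3 and 1.36 for Nfil3, and the last 3 did not differ beyond their spread. The highest were 28.5 CPM for Irf9 and 35.2 for batch B, whose libraries overlapped. For Il21 the order was another one: Hif1a controls were highest at 169 CPM, followed by Irf9 at 140 and Prdm1 and Maf at 125, with Irf4 at 10.6 and Fosl2 at 6.41 CPM lowest. Il2ra controls spanned 338 to 2206 CPM. The lowest values of Il2, Il21 and Il2ra were those of Fosl2 controls, in which Rn45s took 34.0% and 39.6% of counts. With Rn45s left out of the totals, they held 0.217 and 0.653 CPM of Il2 and 594 and 559 CPM of Il2ra. Their Il21 was then 11.2 and 8.99 CPM, which overlapped the Irf4 controls at 8.07, 13.3 and 13.0 CPM. Each knockout is therefore set only against its own controls.

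A gene was called when its adjusted p was below 0.05 (edgeR quasi-likelihood test, Benjamini-Hochberg over all genes tested), and "rose" and "fell" are used only of such calls. Of 93 tests of the 6 genes, 30 were called, 11 as rises and 19 as falls (32.3%), against 7.65% of 169678 tests over all genes in the 16 comparisons. The median log2 change of the 93 was -0.14, while the median over all genes lay between -0.03 and 0.03 in each comparison. Since the genes were picked with earlier results known, nothing is read from the difference in share. All the Il2 tests not made (Atf3, Fosl2, Nfil3) were for too few counts. In bulk RNA, fewer cells that express a gene and less RNA per cell cannot be told apart, and this holds for each change below.

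**Figure D2:**
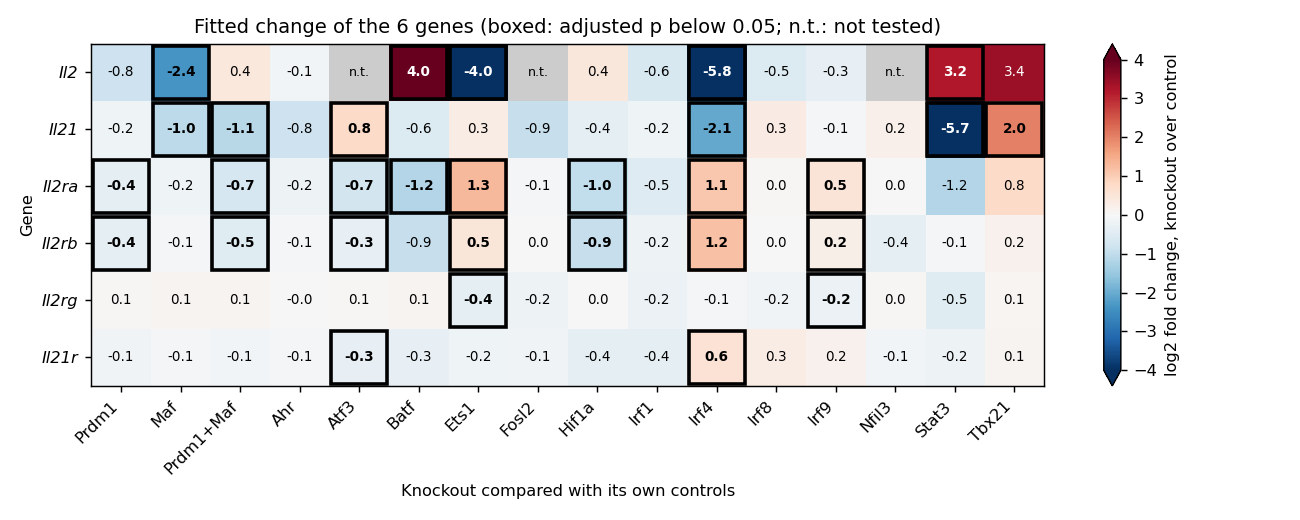
Fitted log2 fold change, knockout over control (color, clipped at 4 in either direction), for the 6 genes (rows) in 16 comparisons (columns). Boxes mark adjusted p below 0.05 and grey cells were not tested; Il2 holds the widest range and Il2rg and Il21r the narrowest.

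Il2 rose in the Batf and Stat3 knockouts. Batf is an AP-1 family factor that pairs with IRF4 in T cells, and Stat3 carries IL-6, IL-21 and IL-27 signals. Il2 stood at 244 CPM in the batch A Batf knockout library against 10.8 in its control. In batch B it stood at 402 CPM against 36.3 and 34.0. Both knockout libraries lay above every control. The fitted rise was 15.7-fold (log2 3.97 ± 0.30 SE, adjusted p = 2.345e-06), and 4.04% of all genes tested were called in this comparison. Within batches, the log2 ratio of means with 0.5 CPM added was 4.43 in A and 3.50 in B. Without the batch A knockout library the fitted value was 3.47 and without the batch B one 4.61, called in both. The 5 CD8 T and NK cell markers summed to 44.1 to 62.4 CPM in Batf knockout libraries against 14.6 to 20.01 CPM, with Ncr1 and Klrb1c at 0, and their part in the Il2 values was not tested.

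The Stat3 knockout, a single library of batch B, had 295 CPM of Il2 against the same controls of 36.3 and 34.0 CPM. The fitted rise was 9.25-fold (log2 3.21 ± 0.35 SE, adjusted p = 0.00019034), where 1.62% of all genes were called. The spread there comes from the other groups of the fit, since the lone library has no replicate. Its CD8 T and NK cell markers summed to 33.9 CPM against 14.6 to 17.9, and its T cell markers to 1513 CPM against 1967 to 2179; their part in its values was not tested. The Batf and Stat3 comparisons share those 2 controls and are not independent.

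Il2 fell in the Irf4, Ets1 and Maf knockouts. IRF4 is a factor induced by antigen receptor signals, and Ets1 is an ETS family factor of resting T cells. Irf4 knockout libraries had 0.508 and 0 CPM against 17.9, 22.7 and 18.8 CPM in controls. These 5 libraries did not overlap. As raw counts this is 2 against 126, a level 64.9-fold lower (exact 95% interval 17.6 to 542, counting error only), and the fitted log2 change was -5.77 ± 0.49 SE (adjusted p = 1.9573e-09; 28% of all genes were called). The fitted value depends on the prior count at such levels: it was -5.06 without the library at 0, and -8.49 without the other, and was called in both.

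The Ets1 knockout libraries had 0 and 0.898 CPM of Il2 and the controls 7.97 and 6.98 CPM. Counts were 4 against 64, or 17.1-fold lower (6.36 to 64.6), with a fitted log2 change of -3.98 ± 0.63 SE (adjusted p = 0.001287; 20.4% of all genes were called). The groups did not overlap. Leaving out the knockout library with no Il2 count gave a log2 change of -2.98, still called. Ets1 itself was at 810 and 778 CPM in libraries labelled Ets1 knockout against 722 and 683 CPM, so its level does not check the label.

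Maf libraries had 0.364, 0.101 and 0.105 CPM of Il2 against 0.483, 0.660 and 1.88 CPM in Cre-negative controls. Maf is an AP-1 related factor that activates Il10 and Il21. All 3 knockout libraries were lower, at a level near the floor: 5 against 26 counts, 5.43-fold lower (2.05 to 18.1), adjusted p = 0.048548, with 9.02% of all genes called. This call was lost in 9 of 14 alternatives, among them DESeq2 and leaving out any Maf library. The double knockout libraries, at 1.87 and 0.900 CPM, overlapped the controls, and the Prdm1 by Maf interaction for Il2 was 3.61 ± 0.93 SE on the log2 scale (adjusted p = 0.068458). DESeq2 called 0 members in the interaction. The edgeR test also called 0, where it called 1.1% of all genes. Il2 was the 1 member with an unadjusted p below 0.05, and it was called with no filter on low counts and without control 1 (adjusted p 0.0419).

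In the Tbx21 knockout Il2 was high but did not pass the test. Tbx21 encodes T-bet, the factor of Th1 cells. The knockout libraries had 89.1 and 340 CPM and the controls 2.95 and 34.8 CPM. The groups did not overlap, but the replicates of each were far apart, and the log2 difference of 3.41 ± 0.87 SE had an adjusted p of 0.05525. Leaving out a library moved this value between 2.09 and 6.06. It was called without knockout library 1 (4.08), without knockout library 2 (2.09) and without control 2 (6.06), and when low-count genes were kept in the fit (adjusted p = 0.005669), but not with DESeq2.

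The remaining Il2 comparisons passed no test. Irf1 knockout libraries had 2.69, 7.89 and 9.53 CPM against 10.8 and 11.8 CPM, a log2 difference of -0.63 ± 0.39 SE. Hif1a (0.45), Irf9 (-0.34), Irf8 (-0.54), Ahr (-0.10) and Prdm1 (-0.84) gave the other log2 values, and adjusted p over these 6 ran from 0.37662 to 0.9969. Of the untested comparisons, Atf3 had 13 counts against 5, Fosl2 0 against 8 and Nfil3 15 against 9, with intervals of the ratio of 0.845 to 9.05, 0 to 1.14 and 1.16 to 7.35. Of the 15 Nfil3 counts, most came from the library that kept Nfil3, at 6.39 CPM against 1.03 CPM in the other.

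**Figure D3:**
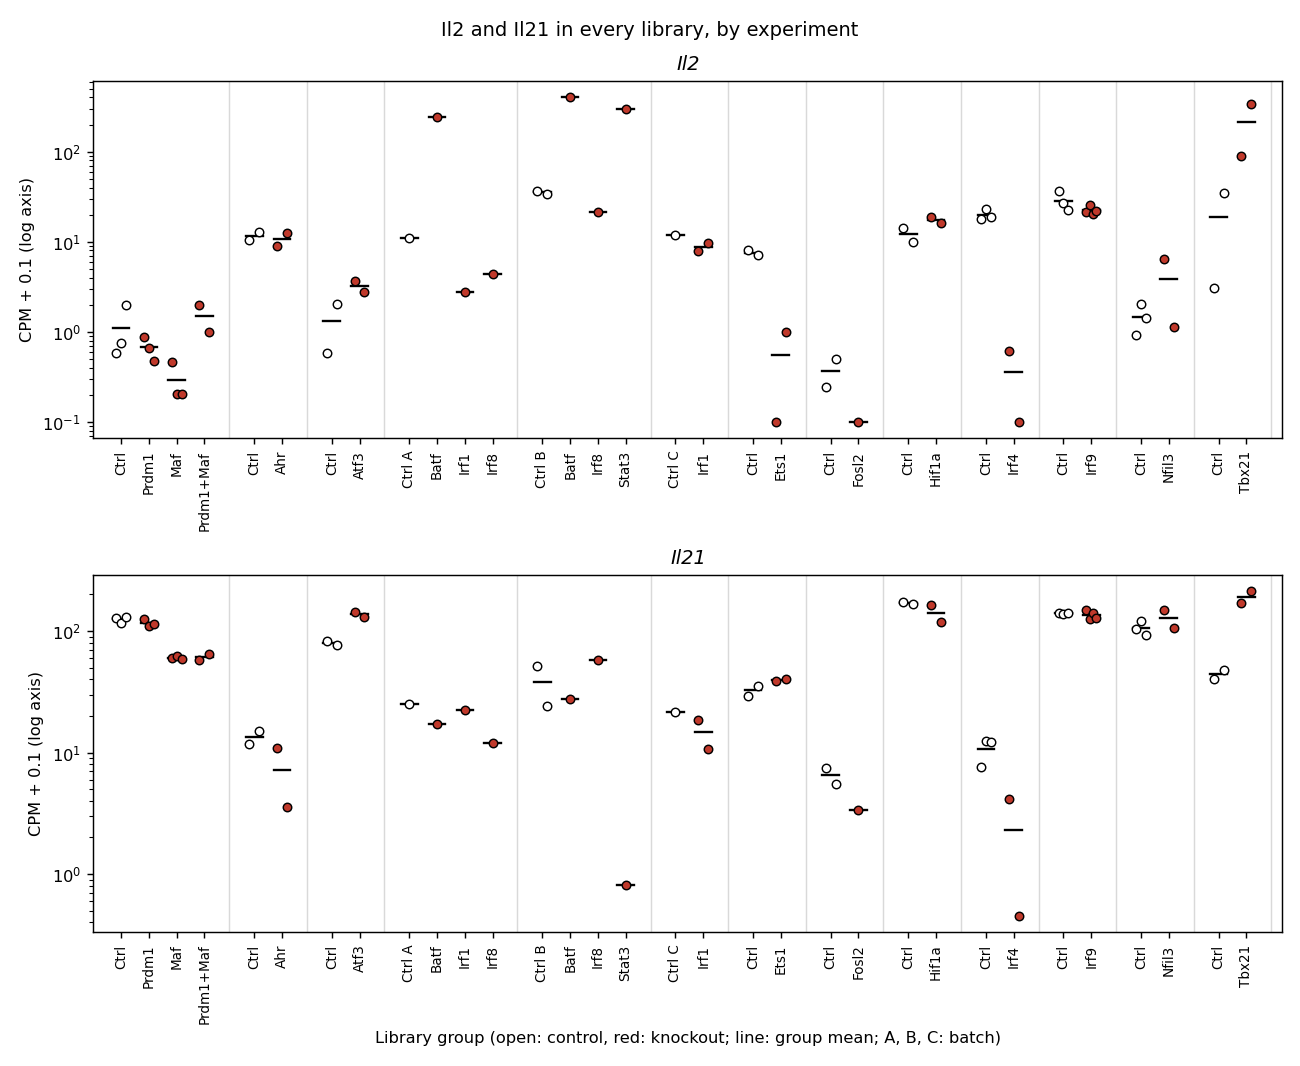
CPM plus 0.1 (y axis, log scale) of Il2 (top) and Il21 (bottom) in each library by experiment; open points are controls, red points knockouts, lines group means. Il2 is high in Batf, Stat3 and Tbx21 knockouts and near the bottom in Irf4 and Ets1; Il21 is low in Maf, the double, Stat3 and Irf4 and high in Atf3 and Tbx21.

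Il21 fell in the Maf, double, Stat3 and Irf4 knockouts. Maf libraries held 59.8, 62.4 and 58.8 CPM against 127, 117 and 131 CPM. The groups were well apart and tight, and the fall was to 0.485 of the control level (log2 -1.05 ± 0.07 SE, adjusted p = 4.1712e-09). The double knockout libraries, at 57.5 and 65.1 CPM, lay on either side of the Maf values, with a log2 change of -1.12 ± 0.08 SE (adjusted p = 6.7842e-09; 19% of all genes were called). Prdm1 knockout libraries, lacking the factor Blimp-1, held 125, 110 and 115 CPM and overlapped the controls (log2 -0.16 ± 0.07 SE, adjusted p = 0.14404; 12.1% of all genes were called). The interaction for Il21 was 0.09 ± 0.11 SE (adjusted p = 0.80429). These comparisons share the same controls.

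The Stat3 knockout library had 0.717 CPM of Il21 against 51.3 and 24.0 CPM. That is 1 count against 142, 55.5-fold lower with a wide exact interval of 9.81 to 2209, and the fitted log2 change was -5.75 ± 0.92 SE (adjusted p = 0.0042447). In this library Il2 and Il21 stood on opposite sides of their controls. STAT3 is the factor that IL-21 itself signals through. The Batf libraries, where Il2 also rose, held 17.2 CPM of Il21 against 25.2 CPM in batch A and 27.5 CPM against 51.3 and 24.0 CPM in batch B, with overlap (log2 -0.56 ± 0.38 SE, adjusted p = 0.55848).

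Irf4 knockout libraries had 4.07 and 0.356 CPM of Il21 against 7.47, 12.3 and 12.1 CPM. Both were below the controls, at a log2 change of -2.06 ± 0.45 SE (adjusted p = 0.0011411). The replicates were far apart, and the change was -4.70 without knockout library 1 and -1.35 without library 2, called in both. Il2 and Il21 thus fell together in the Irf4 knockout. Both also fell in the Maf knockout, where Il2 was near the floor and its call was lost in 9 of 14 alternatives. In the double knockout Il21 fell while Il2 overlapped its controls.

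Il21 rose in the Tbx21 and Atf3 comparisons. Tbx21 knockout libraries held 170 and 214 CPM against 40.4 and 48.1 CPM. They did not overlap, and the rise was 4.02-fold (log2 2.01 ± 0.19 SE, adjusted p = 0.0019628; 6.72% of all genes were called). T cell markers summed to 1752 to 2212 CPM in Tbx21 knockout libraries against 2221 to 2784, with Cd3d and Cd3e falling. B cell markers summed to 13.3 to 18.8 CPM against 7.15 to 7.498 and CD8 T and NK cell markers to 24.9 to 26.0 CPM against 15.5 to 17.3, and the part of these lists in the Tbx21 values was not tested. Libraries labelled Atf3 knockout held 143 and 131 CPM against 82.7 and 76.5 CPM, a rise of 1.72-fold (log2 0.78 ± 0.12 SE, adjusted p = 1.2311e-05; 8.19% of all genes were called). These libraries had high Atf3, so the direction belongs to the label, not to a measured loss. B cell markers and CD8 T cell markers differed in these libraries, as given beside Il2ra.

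The other Il21 changes passed no test. Ahr libraries held 10.8 and 3.49 CPM against 11.6 and 15.1 CPM, log2 -0.84 ± 0.35 SE (adjusted p = 0.65403; 0.381% of all genes were called). Ahr is the aryl hydrocarbon receptor, which works with Maf in Tr1 cells. Ets1 libraries held 38.4 and 40.4 CPM against 29.3 and 35.4 CPM, log2 0.31 ± 0.15 SE. Irf8 libraries held 11.8 CPM against 25.2 in batch A and 57.9 CPM against 51.3 and 24.0 in batch B. Rn45s took 43.7% of counts in the batch A knockout library. With Rn45s left out of the totals, the values were 21.0 CPM against 26.0 in A and 60.0 CPM against 52.8 and 25.2 in B. Hif1a, Irf1, Irf9, Nfil3 and Fosl2 gave log2 values of -0.38, -0.18, -0.05, 0.22 and -0.91.

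Il2ra was called in 8 comparisons, the most of the 6 genes. It rose in Ets1, Irf4 and Irf9. Ets1 knockout libraries held 3844 and 3866 CPM against 1654 and 1548 CPM. Irf4 libraries held 2258 and 2276 CPM against 1077, 1092 and 1178 CPM. Replicates were close and groups far apart in both, with rises of 2.46-fold (log2 1.296 ± 0.06 SE, adjusted p = 1.9185e-07) and 2.12-fold (log2 1.08 ± 0.08 SE, adjusted p = 7.1276e-11). The Irf9 rise, in BALB/c cells, was smaller: 1345, 1343, 1356 and 1311 CPM against 915, 927 and 933 CPM, 1.43-fold (log2 0.51 ± 0.04 SE, adjusted p = 1.0443e-10; 4.93% of all genes were called). IRF9 is part of the complex that carries type I interferon signals. All 3 rises held in every alternative.

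CD25 is also a marker of Foxp3 regulatory T cells, so their markers are given beside these values. The 4 regulatory T cell markers Foxp3, Ikzf2, Ctla4 and Nrp1 summed to 567 to 615 CPM in Ets1 knockout libraries against 232 to 255, to 577 to 619 in Irf4 against 182 to 201, and to 261 to 289 in Irf9 against 81.4 to 116. Each was detected in every library of these groups. All 4 rose in Ets1, 3 of 3 tested rose in Irf9 (Foxp3, Ikzf2 and Ctla4), and in Irf4 Ctla4 and Nrp1 rose. Foxp3 stood at 145 CPM against 42.7 CPM in Irf9 and at 21.8 CPM against 5.72 CPM in Ets1, where the other markers made up most of the sum. In Irf4 all 4 were tested, and Foxp3 and Ikzf2 were not called. CD8 T and NK cell markers were also higher in Ets1, at 29.6 to 32.5 CPM against 10.6 to 15.7 with Cd8a and Cd8b1 rising, and in Irf4, at 52.2 to 56.7 CPM against 15.2 to 18.1 with Eomes rising. T cell markers summed to 1913 to 1932 CPM in Irf4 against 2254 to 2349, with Cd3e and Cd28 falling. The part of these lists in the Il2ra rises was not tested.

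Il2ra fell in Prdm1, the double, Atf3, Batf and Hif1a. Prdm1 libraries held 817, 844 and 780 CPM against 1022, 1052 and 1014 CPM. The double knockout held 682 and 681 CPM, below every Prdm1 library. The log2 changes were -0.40 ± 0.05 SE (adjusted p = 2.3264e-05) and -0.68 ± 0.06 SE (adjusted p = 5.5754e-08). Maf alone, at 918, 875 and 961 CPM, was below each control but was not called by edgeR (log2 -0.16 ± 0.05 SE, adjusted p = 0.062216). DESeq2 called 2 members in Maf, Il21 and another that was not Il2. The interaction for Il2ra was -0.13 ± 0.08 SE (adjusted p = 0.55943).

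Batf libraries held 388 CPM of Il2ra against 981 CPM in batch A and 521 CPM against 1040 and 905 CPM in batch B. Both lay below the controls, 0.442 of their level (log2 -1.18 ± 0.24 SE, adjusted p = 0.0084308). Without the batch A knockout library the change was no longer called, at an adjusted p of 0.3209. The Stat3 library, at 444 CPM, was of like size (log2 -1.16 ± 0.32 SE) but was not called (adjusted p = 0.088639). In both knockouts, where Il2 rose, Il2ra lay below its controls. Il2 and Il2ra were both called in 3 comparisons (Batf, Ets1 and Irf4), with opposite directions in each. In Tbx21, where neither gene was called, both lay above their controls (log2 3.41 and 0.75). Both were called there with no filter on low counts.

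Hif1a libraries, lacking the oxygen-sensing factor HIF-1 alpha by label, held 724 and 989 CPM of Il2ra against 1560 and 1527 CPM. Neither overlapped the controls, and the log2 change was -0.99 ± 0.20 SE (adjusted p = 0.0097434; 5.55% of all genes were called). The call was lost without either control library (largest adjusted p 0.256). Libraries labelled Atf3 knockout held 1290 and 1104 CPM against 1795 and 2206 CPM, log2 -0.74 ± 0.10 SE (adjusted p = 4.7945e-07).

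Tbx21 libraries held 2954 and 3131 CPM of Il2ra against 1297 and 2047 CPM. They lay above both controls, but the controls were far apart and the log2 difference of 0.75 ± 0.21 SE was not called (adjusted p = 0.069846). DESeq2 called it, and leaving out control 1 gave 0.469 and leaving out control 2 gave 1.10. In Ahr, Irf1, Irf8, Nfil3 and Fosl2 the log2 values of Il2ra were -0.19, -0.52, 0.04, 0.03 and -0.06, none of them called.

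B cell markers stood above controls in 4 of these 5 falls, but also in comparisons where Il2ra did not fall. The sum of 5 markers, Cd79a, Cd79b, Ms4a1, Pax5 and Cd22, was 67.3 to 105 CPM in Hif1a knockout libraries against 4.90 to 7.75, with all 5 rising. It was 49.4 to 49.5 CPM in Atf3 against 0.970 to 3.90, with 4 of 4 tested rising and Cd79a and Pax5 at 0 in those controls. In Prdm1 it was 6.75 to 8.08 CPM and in the double 7.004 to 8.84 CPM against 1.53 to 2.71. In Batf it was 7.84 to 9.53 CPM against 0.920 to 9.20 CPM. The sum was also higher in Irf4, at 18.2 to 21.2 CPM against 10.7 to 13.8, where Il2ra rose. It was higher in Nfil3 (14.7 to 41.5 CPM against 2.99 to 4.11) and Tbx21 (13.3 to 18.8 CPM against 7.15 to 7.498), with Il2ra not called. It was lower in Irf9 (0.753 to 6.25 CPM against 14.1 to 16.1) and Ets1 (5.82 to 7.14 CPM against 10.5 to 13.8), where Il2ra rose. In Ahr and Irf1 it was lower too, with Il2ra not called. The summed regulatory T cell markers, of which Ctla4 made up most, were lower than in controls in Prdm1 (210 to 261 CPM against 335 to 385), the double (192 to 195 CPM), Hif1a (203 to 298 CPM against 522 to 532) and Batf (55.4 to 57.7 CPM against 173 to 247), where Ctla4 was at 30.6 CPM against 182 CPM. Ctla4 fell in each of these, but the list did not move as a whole: Ikzf2 rose in Prdm1, Foxp3 fell in the double, and the median log2 change of the 4 was 0.07 in Prdm1, -0.13 in the double, -0.33 in Hif1a and 0.81 in Batf. In Maf, where Il2ra was not called, the sum was also lower, at 206 to 222 CPM, with Ctla4 falling, Ikzf2 rising and a median of 0.22. CD8 T and NK cell markers were lower in Atf3, at 15.2 to 17.3 CPM against 91.4 to 133 CPM, with Cd8a and Cd8b1 falling. They were higher in Prdm1, at 16.6 to 21.4 CPM against 9.78 to 10.8, in the double, at 11.3 to 12.8 CPM, and in Hif1a, at 14.7 to 20.5 CPM against 7.71 to 10.5, with Cd8a rising in each. The part of these marker lists in the falls was not tested.

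**Figure D4:**
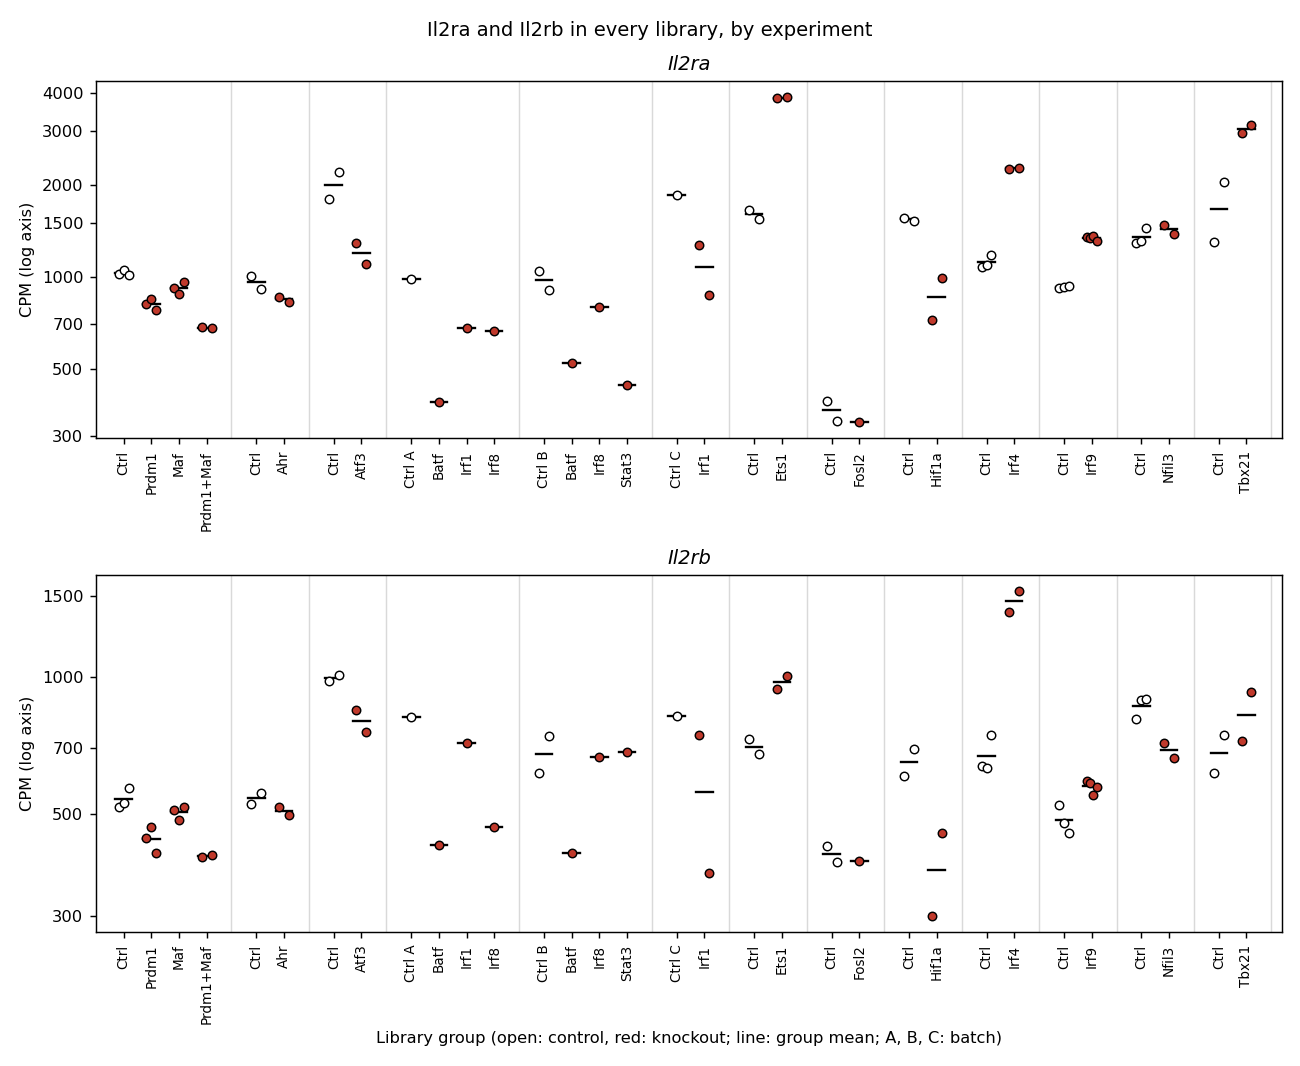
CPM (y axis, log scale) of Il2ra (top) and Il2rb (bottom) in each library by experiment; open points are controls, red points knockouts, lines group means. Both genes stand above controls in Ets1, Irf4 and Irf9 and below them in Prdm1, the double, Atf3, Batf and Hif1a. Both are also below controls in Maf, Ahr and, within batches, Irf1, where neither gene was called.

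Il2rb was called in 7 comparisons, each time with Il2ra and in the same direction (7 of 7). Irf4 libraries held 1389 and 1541 CPM against 638, 632 and 746 CPM. The rise, 2.26-fold (log2 1.18 ± 0.09 SE, adjusted p = 1.3052e-10), was of the size of that of Il2ra. Ets1 libraries held 939 and 1006 CPM against 730 and 677 CPM (log2 0.50 ± 0.07 SE, adjusted p = 0.00055547), less than Il2ra in the same libraries. The Irf9 rise was log2 0.23 ± 0.05 SE (adjusted p = 0.0072277), with 4 of 4 knockout libraries above the controls. Of these, libraries 1 and 2, and 3 and 4, differed little beyond sampling noise. The call was lost when alike library pairs were summed and without control 2 or 3.

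Il2rb fell in Hif1a, at 301 and 455 CPM against 607 and 696 CPM (log2 -0.93 ± 0.21 SE, adjusted p = 0.016995). It fell by 0.35 in Prdm1 (adjusted p = 0.00033127) and by 0.50 in the double (adjusted p = 1.5017e-05) on the log2 scale, each with no overlap. In Atf3 it fell by 0.32 (adjusted p = 0.025348). The Hif1a call was lost without either control, and the Atf3 call with DESeq2 and in 3 of the fits that left out a library. Batf libraries, at 429 and 411 CPM against 815 in batch A and 617 and 741 CPM in batch B, were below their controls without a call (log2 -0.91 ± 0.25 SE, adjusted p = 0.053759); DESeq2, the fit with no filter and that of its own batches alone called the fall. The Stat3 library, at 683 CPM, lay between its controls for Il2rb.

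Il2rg, the chain both receptors share, moved least. It was called in 2 of 16 comparisons, both falls. Ets1 libraries held 243 and 229 CPM against 311 and 308 CPM (log2 -0.36 ± 0.08 SE, adjusted p = 0.0080296). Irf9 libraries held 707, 714, 611 and 659 CPM against 767, 763 and 808 CPM (log2 -0.23 ± 0.05 SE, adjusted p = 0.0053833). In both, Il2ra and Il2rb rose where Il2rg fell. The Ets1 call was lost without knockout library 2 (adjusted p 0.11), and the Irf9 call when alike pairs were summed or without control 3. In Irf4, where the other IL-2 receptor chains rose, Il2rg stood at 274 and 287 CPM against 315, 321 and 301 CPM (log2 -0.08 ± 0.08 SE, adjusted p = 0.48763).

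Il21r rose in Irf4, at 590 and 583 CPM against 406, 418 and 407 CPM. The groups were tight and apart, 1.498-fold (log2 0.58 ± 0.08 SE, adjusted p = 2.6633e-06). It fell in Atf3, at 538 and 471 CPM against 637 and 620 CPM (log2 -0.32 ± 0.10 SE, adjusted p = 0.029945), a call lost with DESeq2 and in 3 of the fits that left out a library. In the other 14 comparisons it was not called, with log2 values from -0.37 in Hif1a to 0.30 in Irf8. In the Maf and double knockouts, where Il21 fell, Il21r was at 709 to 726 and at 729 and 758 CPM against 741, 734 and 799 CPM.

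**Figure D5:**
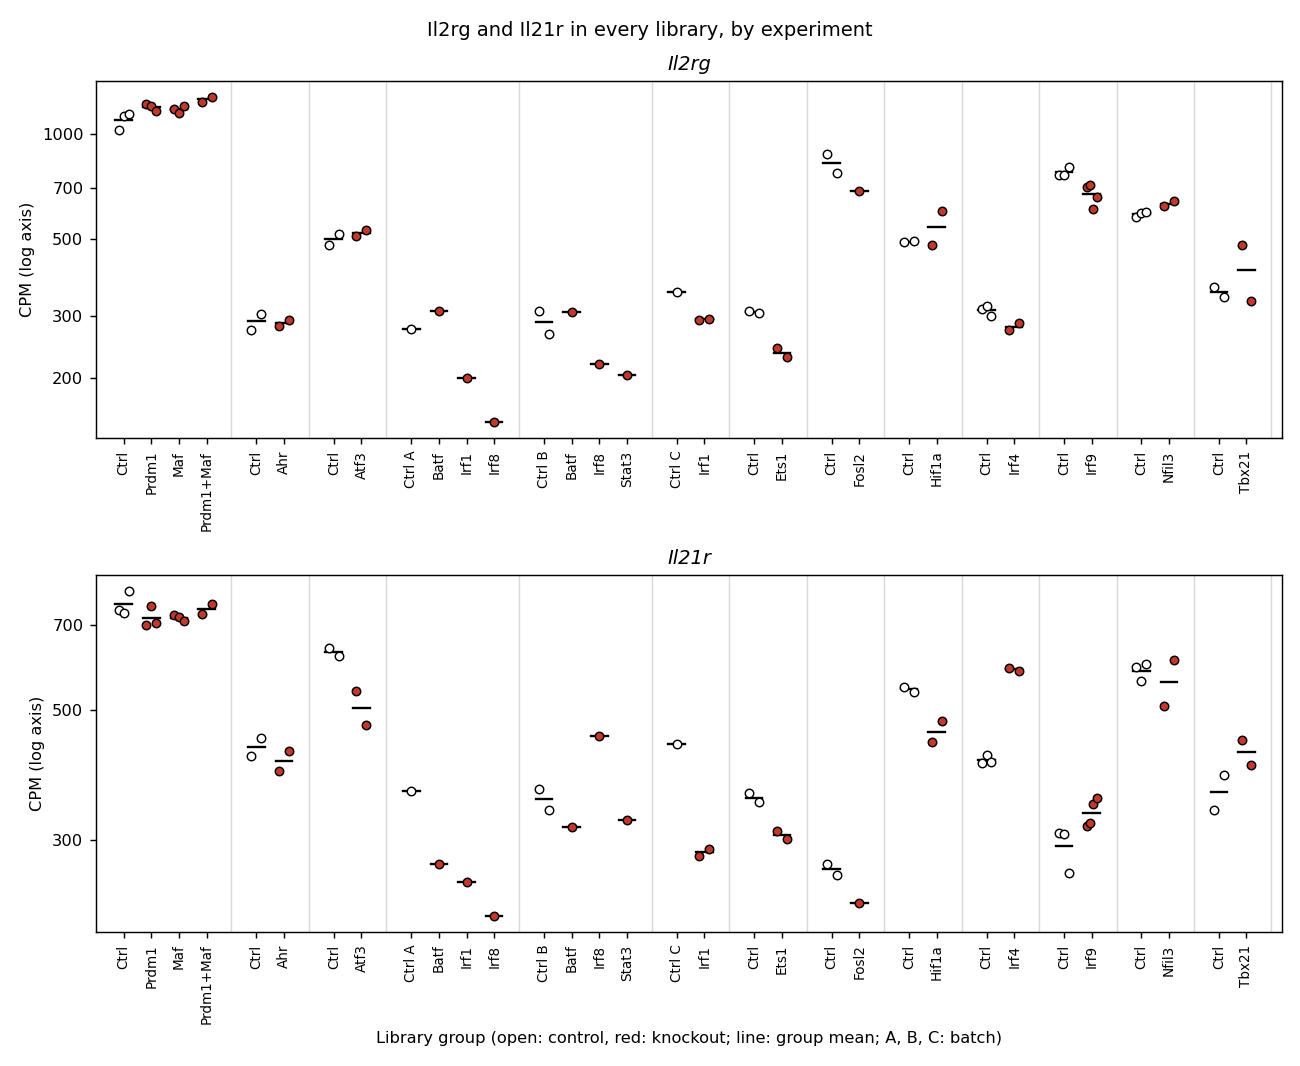
CPM (y axis, log scale) of Il2rg (top) and Il21r (bottom) in each library by experiment; open points are controls, red points knockouts, lines group means. Il2rg fell in Ets1 and Irf9, and Il21r rose in Irf4 and fell in Atf3. Some other knockouts stand apart from their controls without a call. The low Irf8 point of batch A is the library with 43.7% Rn45s.

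With edgeR, 0 members were called in the Ahr, Fosl2, Irf1, Irf8 and Nfil3 comparisons, and DESeq2 also called 0 in each. An unadjusted p below 0.05 was reached by 1 member in Ahr (Il21), 1 in Irf1 (Il2ra), 1 in Nfil3 (Il2rb) and 0 in Fosl2 and Irf8. Few genes were called there at all: 0.632% in Fosl2, 0.479% in Irf1, 0.0452% in Irf8 and 0.0207% in Nfil3, beside the 0.381% of Ahr. The Fosl2 fit rested on 1 knockout library. The targeted gene itself was not called in these comparisons either. Ahr stood at a mean of 13.2 CPM in libraries labelled Ahr knockout against 7.22 CPM in controls (log2 0.87). The log2 values of the targeted gene were 0.12 in Irf8, -0.04 in Fosl2, -0.67 in Irf1 and -1.38 in Nfil3. In Nfil3, 1 knockout library kept 211 CPM. The lack of member calls is therefore not read as a lack of effect of these factors. Il2rb in Nfil3 stood at 718 and 664 CPM against 811, 892 and 893 CPM (log2 -0.38 ± 0.12 SE, adjusted p = 0.99952).

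The Irf4 knockout had the most members called, 5 of 6: both cytokines fell and Il2ra, Il2rb and Il21r rose. Around them, all 9 of the listed STAT5 and IL-2 response genes rose there, against 28% of all genes called in either direction. Socs1, an inhibitor of JAK signalling induced by cytokines, stood at 207 CPM against 67.7 CPM (log2 1.68 ± 0.10 SE, adjusted p = 5.2225e-12). Cish, a STAT5 target that restrains IL-2 signalling, stood at 413 CPM against 218 CPM (log2 0.98 ± 0.08 SE), and Myc, a transcription factor that promotes cell growth, at 351 CPM against 197 CPM. The median log2 change of the 9 was 0.94. In Ets1, where Il2 also fell and Il2ra rose, 6 of 9 rose and Lta fell, where 20.4% of all genes were called. In Hif1a, where both receptor chains fell, Cish and Bcl2 fell, Cish from 352 to 173 CPM. The list was mixed in the other comparisons where both chains fell. In the double, Ccnd2, Myc and Lta rose and Cish, Socs1, Socs2 and Pim1 fell. In Prdm1, Myc rose and Cish and Pim1 fell, and in Atf3, Socs2 rose and Lta fell. In Irf9, where both chains rose, Cish and Pim1 rose and Ccnd2 fell. In Batf and Stat3, where Il2 rose, 0 of the 9 were called, where 4.04% and 1.62% of all genes were. Over the 16 comparisons 27 of 144 tests of this list were rises and 14 falls (28.5% called, against 7.65% over all genes).

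The other chains that pair with the gamma chain also moved. Of Il4ra, Il7r, Il9r and Il15ra, 3 could be tested, giving 6 rises and 11 falls in 48 tests (35.4% called, against 7.65% over all genes). Il4ra, the IL-4 receptor alpha chain, rose in Irf4 from 415 to 947 CPM (log2 1.25 ± 0.08 SE, adjusted p = 1.6126e-11), in Ets1 from 426 to 608 CPM and in Irf9 from 418 to 595 CPM. It fell in Batf from 354 to 178 CPM, in Hif1a from 745 to 417 CPM, in Atf3 from 823 to 562 CPM and in the double from 898 to 736 CPM. Il2ra was called the same way in each of these 7. Il4ra also fell in Maf, from 898 to 762 CPM, where Il2ra was not called. Il7r, the IL-7 receptor of naive and memory T cells, fell in Batf from 74.2 to 23.5 CPM and in Tbx21 from 195 to 80.8 CPM. It also fell in Prdm1, the double, Atf3 and Hif1a, and it rose in Ets1 from 173 to 209 CPM and in Irf4 from 86.7 to 137 CPM. Of the gamma chain cytokines only Il4 reached a test, in the Prdm1 and Maf experiment; it fell in Maf and in the double, from 2.50 CPM to 0.625 and 0.05002 CPM.

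The JAK and STAT genes gave 7 rises and 10 falls in 96 tests (17.7% called, against 7.65% of all genes). Jak3, the kinase bound to the gamma chain, fell in Hif1a to a mean of 293 CPM (log2 -0.89 ± 0.18 SE, adjusted p = 0.011188), together with Stat5a and Stat5b. Stat5a rose in Irf4 from 413 to 539 CPM. Other comparisons went against the direction of the receptor chains. Stat5a and Stat5b rose in Prdm1, where Il2ra and Il2rb fell, and Stat5a fell in Ets1, where Il2ra and Il2rb rose. Stat5a also fell in Atf3, where both chains fell as well, and in Maf, where neither chain was called. Of 11 factors known to act on the Il2 gene, 12 rises and 16 falls were called in 161 tests (17.4% called, against 7.65% over all genes). In Irf4, where Il2 was nearly gone, Nfkb1 stood at 985 CPM against 468 CPM and Junb at 1060 CPM against 618 CPM. Crem, whose product can repress Il2, stood at 86.1 CPM against 33.8 CPM there, while Ikzf1 and Ikzf3 of the same list fell. Crem also rose in Ets1 and Irf9, and it fell in Prdm1, Maf, the double, Atf3 and Batf. The part of these factors in the Il2 values was not tested.

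The genes whose differences were most like those of a member were ranked by Pearson's r of log2 CPM differences over the 16 comparisons, among 9417 genes. As comparisons share controls and no test is given, these are descriptions. For Il2 they were Btla, an inhibitory receptor of T cells (r = 0.928), Zranb2 (0.919) and Ppif (0.901). For Il21 they were Dab2ip (0.894), Armcx6 (0.886) and Nfix (0.871). For Il2ra they were Il4ra (0.943), Tnfrsf8, which encodes CD30 (0.933), and Ptprj (0.927).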

How the data were processed

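The authors deposited 1 table per library with expected counts and TPM for each gene; TopHat, RSEM and build mm9 are named per the submitters' processing notes, with versions not given in the sources used here. Of the nonzero deposited expected counts, 22.4% were not whole, and they were rounded before testing. CPM is the expected count with the library total scaled to 1000000; the deposited TPM values were used for levels between genes only. Each experiment was fitted in edgeR 4.0.16 (R 4.3.3): filterByExpr, TMM, quasi-likelihood F-test, Benjamini-Hochberg adjustment over all genes tested, threshold 0.05. Batf, Irf1, Irf8 and Stat3 were fitted together with batch as a term, and Prdm1, Maf and the double knockout in another fit. The fit was tested on simulated counts. Intervals of count ratios are exact binomial and cover counting error only; 3 counts equal 0.197 to 4.04 CPM. Replicate pairs of a group were compared: 0 of 44 were identical, and 4 differed little beyond sampling noise (chi-square per degree of freedom under 1.3). These were Irf9 knockout libraries 1 with 2 and 3 with 4, Irf9 controls 2 with 3, and Irf4 controls 1 with 2. All were kept, with the pairs summed as an alternative. Alternatives were DESeq2 1.42.0, its size factors, no filter, a replicate block, batch handling and leaving out libraries. Genes named besides the 6 are the targeted genes, up to 4 genes per pathway list with the smallest adjusted p, and the cell type markers. Also named are the 3 genes most alike in pattern to Il2, Il21 and Il2ra (mean of at least 5 CPM). Bcl2, Stat5b, Ikzf1, Ikzf3, Ccnd2, Socs2, Pim1 and further comparisons of the named pathway genes were chosen after their values were seen. The members and lists were chosen with earlier results of these data known. Sequences are RefSeq. Of the B cell marker list, 1 gene is not reported here, and sums are over the other 5.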

Additional observations from a re-analysis of the deposited data

How the results depend on the processing

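Of the 30 called changes, none changed sign under any alternative. They stayed called in 30 of 30 fits with DESeq2 size factors and 30 of 30 with no filter on low counts, in 27 of 30 with DESeq2 itself, in 23 of 26 with a replicate block and in 190 of 212 fits that left out 1 library. Keeping the double knockout library of 9059 counts left 0 members called in Prdm1, 0 in Maf and 0 in the double, moved the median change of all genes in the double by -0.315 on the log2 scale, and turned Il2rg in the double to -0.472 and the interaction to -0.3832 for Il21 and -0.492 for Il21r. Keeping the Rn45s-rich Fosl2 library gave log2 values of 2.807 for Il21, 1.221 for Il2ra, -0.1345 for Il2rb and 0.2901 for Il2rg.

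Member counts moved as follows. Maf had 1 with the replicate block, 2 with DESeq2 (Il21 and a member other than Il2) and 1 to 3 leaving out a library. Atf3 had 2 with DESeq2, 2 with the block and 2 to 4 leaving out a library. Irf9 had 1 with pairs summed and 1 to 3 leaving out a library, and Tbx21 had 2 with DESeq2, 3 with no filter, 3 with the block and 1 to 3 leaving out a library. The interaction had 1 with no filter and 0 to 1 leaving out a library, Batf 1 to 3 and Hif1a 0 to 3. Il2 in Tbx21 was called with the block (log2 3.644, adjusted p 2.377e-05) and with no filter, and Il2ra there with the block, no filter and DESeq2; Il2rb in Batf and Il2ra in Stat3 were called with DESeq2, with no filter and in their own batches alone.

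The following uncalled values changed sign. Without the filter these were Il2rg in Hif1a (-0.002983) and Il2rb in Irf8 (-0.004269), and without the batch term Il2ra in Irf8 (-0.1415). Leaving out 1 library gave log2 ranges of -0.2201 to 0.8092 for Il2 in the double, -0.3311 to 0.1013 for Il2 and -0.08337 to 0.04046 for Il2rg in Ahr, -0.1171 to 0.1356 for Il2rg in Hif1a, -0.3265 to 0.02544 for Il21 in Irf1, and -0.01446 to 0.1778 for Il21 in the interaction. In Irf8 they were -0.2157 to 0.6342 for Il21, -0.3231 to 0.3954 for Il2ra, -0.07714 to 0.09315 for Il2rb and -0.3415 to 0.06088 for Il2rg. In Nfil3 they were -0.0256 to 0.4206 for Il21, -0.01022 to 0.08694 for Il2ra, -0.004492 to 0.07687 for Il2rg and -0.2793 to 0.01364 for Il21r. Il2rb in Stat3 ran from -0.1934 to 0.02544, and in Tbx21 Il2rb ran from -0.05403 to 0.3604 and Il2rg from -0.1746 to 0.3032. The cause was not tested for any of these.

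The replicate numbers are not said to pair libraries. With 3 or more shared numbers, 2 of 9 Prdm1 and Maf libraries and 0 of 6 Irf9 libraries correlated best with their own number, so the block is an alternative only. Leaving out a library was not possible for Fosl2 or for the lone Stat3 library. A count of 0 allows up to 3 counts, which is 0.197 CPM in the deepest library and 4.04 CPM in the shallowest, so low Il2 levels in the Maf, Ets1, Fosl2 and Irf4 knockouts are limited by depth.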
